A study of Mus musculus with 12 samples.

Results

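The genes described here encode the alpha chains of collagen. They were taken from the array's annotation as the probe sets that carry a single gene symbol made of Col, a number, the letter a and a number, such as Col1a1. This gave 43 chains among the 22206 probe sets tested, namely 11 fibrillar chains, 8 chains of basement membrane collagens and 24 other chains. Col7a1, the anchoring fibril collagen, was left out because the array pairs it with a microRNA gene. Its probe set lay between 6.88 and 7.88 in the 12 arrays.

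The RNA came from the mouse line 3T3-L1, whose preadipocytes form fat cells in culture under a hormone mix. Of the 6 groups, with 2 Clariom S arrays each, 5 were given a compound at 5 µM for 14 days, and the last was a control. The compounds were squalene (SQ), the hydrocarbon precursor of sterols, and its ethylene glycol derivatives mono-SQ and di-SQ, then tri-SQ and tetra-SQ. The labels describe the control as untreated and kept for 14 days without induction, while the protocol describes induction with IBMX, dexamethasone and insulin, with or without a compound. Which hormones the control cells received is therefore not settled by the labels. All 6 groups are the same line, and the labels do not say whether the 2 arrays of a group came from separate cultures, so p-values measure the spread between arrays, which may be technical. Values are log2 signals normalised by the authors. A difference of 1 is a 2-fold change, and levels of different chains are not set against each other because probe sets differ in response.

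Collagen is a triple helix of 3 alpha chains. Fibrillar chains of types I, III and V build the rope-like fibrils of connective tissue, with type V acting as a regulator of fibril assembly on which types I and III grow. Type IV chains form the sheet-like network of basement membranes, which surround each mature fat cell, and type VI forms beaded filaments that are abundant in adipose tissue. Chains are hydroxylated and folded in the endoplasmic reticulum, exported, trimmed by proteinases and crosslinked outside the cell. Preadipocytes lay down a fibril-rich matrix, and fat cell formation is accompanied by a shift from fibril to basement membrane components.

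The labels number the 2 arrays of a group 1 and 2, and the second arrays of the 5 compounds stood apart from all other arrays in much of the transcriptome. Of all probe sets, 5492 (24.7%) differed between the second and first compound arrays. The second-minus-first differences of any 2 compounds correlated across probe sets at 0.48 to 0.719 over 10 pairs, against -0.000737 to 0.00244 for the 5 pairs of a compound with the control. The 6 adipocyte markers, Adipoq, Fabp4, Plin1, Cidec, Slc2a4 and Lpl, were lower in the second compound arrays, 6 of 6 past the test, by a median of -3.41 (log2). The log2 of their summed signal was 17.5 to 18.05 in the second compound arrays, 19.9 to 20.19 in the first and 19.78 to 19.84 in control. Plin1, the coat protein of lipid droplets, ranged from 10.09 to 10.67 in the second compound arrays, 14.68 to 15.3 in the first, and stood at 15.29 and 15.27 in control. Averages of the 2 arrays of a compound thus join unlike arrays, and the chains are given by array number below. What the number stands for is not stated in the labels, and its part in the collagen results was not tested.

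A chain was called near background in an array where its value did not exceed the 95th percentile of that array's 5222 negative control probe sets (10.02 to 10.83 across arrays). By this measure 10 chains were above background in all 12 arrays. They were Col1a1, Col1a2, Col3a1 and Col5a2 of the fibrillar chains, Col4a1, Col4a2 and Col18a1 of basement membranes, and Col6a1, Col6a2 and Col6a3. Col5a1, a chain of type V, passed in 5 arrays, all of them second arrays of compounds. Col16a1, a chain of a collagen associated with fibrils, passed in 7 arrays. These 12 are called chains above background in what follows.

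The other 31 chains were near background in all 12 arrays. Among the fibrillar chains these were Col2a1, Col5a3, Col11a1, Col11a2, Col24a1 and Col27a1. Among the basement membrane chains they were Col4a3, Col4a4, Col4a5, Col4a6 and Col15a1. The others were Col6a4, Col6a5, Col6a6, Col8a1, Col8a2, Col9a1, Col9a2, Col9a3, Col10a1, Col12a1, Col13a1, Col14a1, Col17a1, Col19a1, Col20a1, Col22a1, Col23a1, Col25a1, Col26a1 and Col28a1. The percentile is strict, since negative control probe sets include bright ones. It lay above the upper quartile of all probe sets (8.95 to 9.16) in every array, and 4845 of all 22206 probe sets passed it in any array. A chain near background by this measure is therefore not shown to be absent. By their 75th percentile 25 chains stayed under it in all arrays, and 17 stayed under the negative control median (6.095 to 6.656) in all arrays. The last set holds Col10a1 of hypertrophic cartilage, Col9a1 and Col9a2 of cartilage, Col17a1 of epithelial attachment, and Col4a3 and Col4a4 of the kidney filter. Col11a1, Col4a5 and Col15a1 lay above the negative control median in all 12 arrays, and above the 75th percentile in 10, 3 and 12 arrays. Passing the median does not show that a signal is present, so their differences are between values near background.

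**Figure D1:**
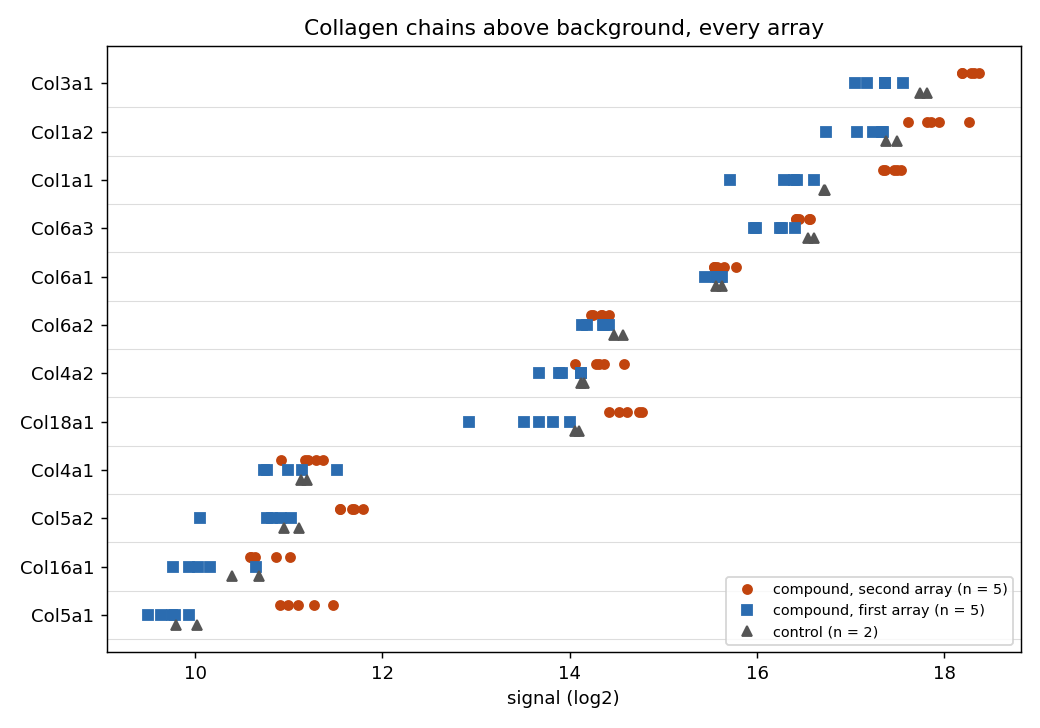
Signal (log2, x axis) of the 12 collagen chains above background in each of the 12 arrays, with a row per chain. Circles are the second arrays of the 5 compounds, squares their first arrays and triangles the 2 control arrays. For Col1a1, Col3a1, Col5a1 and Col18a1 the circles lie to the right of all squares, while for Col6a1 and Col6a2 they overlap them.

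The promoters of a few chains are printed as examples. Of these, Col1a2, Col3a1, Col5a1, Col11a1 and Col4a2 were called higher in the second compound arrays, and Col6a1 did not pass the test. The call of Col4a2 was marginal, as given below. The chains were not tested against each other, and any part of the promoters in their differences was not tested. Each printed promoter is the RefSeq window of GRCm38.p6 from 250 bases before to 50 bases after an annotated start. For Col5a1 and Col11a1 this start lies inside the gene and is not its first base. The windows are read 5′ to 3′ on the gene's strand. Capitals mark, on either strand, TATAAA as the short form of the TATA box, the letters CCAAT of the box that bears this name, and GGGCGG as the short form of the GC box. Overlap among these 3 motifs was allowed. The windows are Col1a2 at chr6:4505368-4505667 (+), Col3a1 at chr1:45311288-45311587 (+), Col5a1 at chr2:27886175-27886474 (+), Col11a1 at chr3:114030290-114030589 (+), Col4a2 at chr8:11312555-11312854 (+) and Col6a1 at chr10:76725995-76726294 (-).
Col1a2: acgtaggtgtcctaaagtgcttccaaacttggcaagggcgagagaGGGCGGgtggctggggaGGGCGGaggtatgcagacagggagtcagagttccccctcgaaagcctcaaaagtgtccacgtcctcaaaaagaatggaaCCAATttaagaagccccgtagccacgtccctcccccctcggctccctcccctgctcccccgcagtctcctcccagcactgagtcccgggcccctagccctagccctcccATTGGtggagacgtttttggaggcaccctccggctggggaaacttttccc
Col3a1: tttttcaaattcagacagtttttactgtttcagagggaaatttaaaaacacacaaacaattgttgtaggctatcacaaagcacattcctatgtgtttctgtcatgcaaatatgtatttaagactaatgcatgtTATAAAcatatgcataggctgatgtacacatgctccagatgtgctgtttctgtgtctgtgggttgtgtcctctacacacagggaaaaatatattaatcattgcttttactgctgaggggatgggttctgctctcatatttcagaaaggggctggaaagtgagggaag
Col5a1: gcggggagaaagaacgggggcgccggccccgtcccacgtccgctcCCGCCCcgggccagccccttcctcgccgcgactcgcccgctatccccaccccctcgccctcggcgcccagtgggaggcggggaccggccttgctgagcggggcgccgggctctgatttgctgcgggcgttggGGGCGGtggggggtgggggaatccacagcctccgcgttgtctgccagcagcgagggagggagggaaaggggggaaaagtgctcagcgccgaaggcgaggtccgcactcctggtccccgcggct
Col11a1: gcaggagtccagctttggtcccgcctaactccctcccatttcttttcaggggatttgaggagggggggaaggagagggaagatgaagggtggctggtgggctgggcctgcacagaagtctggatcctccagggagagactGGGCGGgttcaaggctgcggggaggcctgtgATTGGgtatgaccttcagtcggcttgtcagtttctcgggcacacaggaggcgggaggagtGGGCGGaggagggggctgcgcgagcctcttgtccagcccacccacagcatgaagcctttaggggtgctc
Col4a2: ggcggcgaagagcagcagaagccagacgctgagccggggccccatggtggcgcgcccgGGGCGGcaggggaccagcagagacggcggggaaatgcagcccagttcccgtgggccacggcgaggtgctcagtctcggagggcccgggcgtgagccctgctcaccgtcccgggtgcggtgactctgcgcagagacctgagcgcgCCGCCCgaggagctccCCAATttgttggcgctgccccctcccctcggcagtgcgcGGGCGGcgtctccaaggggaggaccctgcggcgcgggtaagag
Col6a1: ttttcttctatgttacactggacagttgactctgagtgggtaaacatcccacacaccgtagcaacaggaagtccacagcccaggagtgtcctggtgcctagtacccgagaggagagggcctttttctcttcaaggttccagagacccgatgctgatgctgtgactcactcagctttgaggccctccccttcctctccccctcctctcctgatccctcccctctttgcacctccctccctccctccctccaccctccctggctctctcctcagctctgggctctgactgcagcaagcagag

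The 6 windows differed in make-up. Col3a1 held TATAAA, at position -117 from the annotated start, and had a GC content of 37.7%, while Col5a1 held GC boxes only and had 75.0%. Col1a2, Col11a1 and Col4a2 each held both a CCAAT box and GC boxes. The Col6a1 window held none of the 3. The window of Col4a2 shares 78 bases with that of Col4a1, its head-to-head neighbour on chromosome 8, so the pair is not 2 independent sequences.

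Windows were found for 34 of the 43 chains, 37 windows in all. GGGCGG was in 22 of the 37 (59.5%), against 35.7% of all 32851 RefSeq promoter windows. CCAAT was in 12 (32.4%, against 37.4% of all) and TATAAA in 5 (13.5%, against 13.6%). Among the windows of chains that were higher in the second compound arrays, 8 of 12 held GGGCGG, 6 of 12 CCAAT and 1 of 12 TATAAA. Among those of the remaining chains the counts were 14 of 25, 6 of 25 and 4 of 25. These matches are descriptions of letters and were not tested.

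Of the 43 chains, 14 were higher and 0 lower in the second than in the first arrays of the compounds (limma with a term for the second compound arrays, Benjamini-Hochberg over all 22206 probe sets, threshold 0.05). Of all probe sets, 2894 (13%) were called higher and 2598 lower in this comparison. By class, 7 of 11 fibrillar chains, 4 of 8 basement membrane chains and 3 of 24 other chains were called. With the number taken as a replicate block over all 12 arrays, so that the control pair enters the second-minus-first difference, 10 chains were called, namely 6 fibrillar, 3 basement membrane and 1 other, and Col4a2, Col16a1, Col27a1 and Col28a1 lost the call. Fewer of all probe sets were also called in that fit. The median difference was 0.75 (log2) for fibrillar, 0.27 for basement membrane and 0.07 for other chains, against -0.02 for all probe sets. In bulk RNA, fewer cells of a type and less RNA per cell cannot be told apart.

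Col1a1, which encodes the major chain of type I collagen, had signals of 17.35, 17.37, 17.54, 17.46 and 17.5 in the second arrays of SQ, mono-, di-, tri- and tetra-SQ. In their first arrays it had 16.61, 16.43, 16.39, 15.71 and 16.29, and in control 16.72 and 16.73. Every second compound array lay above every first one and above both controls, and the first array of tri-SQ was the lowest of all. The difference was 1.16 ± 0.15 (log2 ± SE, 2.23-fold, adjusted p = 0.000196). Col1a2, the other chain of type I, had 17.82, 17.61, 17.94, 18.26 and 17.86 in the second arrays, against 17.34, 17.24, 17.33, 16.74 and 17.07 in the first, and 17.38 and 17.49 in control. The ranges of second and first arrays did not meet, and the difference was 0.75 ± 0.17 (1.69-fold, adjusted p = 0.00647).

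Col3a1, the single chain of type III collagen, which is laid down early in young connective tissue, also differed. It had 18.19, 18.28, 18.37, 18.32 and 18.19 in the second arrays of SQ, mono-, di-, tri- and tetra-SQ, against 17.56, 17.37, 17.37, 17.05 and 17.17 in the first, and 17.81 and 17.74 in control. Both control arrays lay between the 2 sets of compound arrays, which did not overlap. The difference was 0.97 ± 0.13 (1.95-fold, adjusted p = 0.000209).

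Col5a1 and Col5a2, chains of type V, were also higher. Col5a1 had 10.99, 10.91, 11.27, 11.47 and 11.1 in the second arrays, against 9.64, 9.94, 9.5, 9.75 and 9.79 in the first, and 9.8 and 10.02 in control. All its first and control values were near background, so its difference of 1.42 ± 0.15 (log2, adjusted p = 3.39e-05) gives only a bound on the fold. Its second arrays averaged 11.18 on the scale of the series matrix, against a background limit of 10.11 in the first, which is at least 2.1-fold higher. Col5a2 had 11.79, 11.55, 11.68, 11.7 and 11.55 in the second arrays, against 10.77, 10.92, 11.02, 10.05 and 10.82 in the first, and 11.11 and 10.95 in control. All second arrays were again above all first arrays, with the first tri-SQ array alone at the bottom, and the difference was 0.94 ± 0.16 (1.92-fold, adjusted p = 0.00133). Col5a3, the third chain of type V, was near background in all arrays and differed by 0.03.

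Col11a1, which in cartilage forms the core of fibrils and is closely related to Col5a1, was higher in the second arrays. It had 9.03, 9.28, 9.86, 9.23 and 9.47 in the second arrays, against 7.66, 7.23, 7.84, 7.12 and 7.41 in the first, and 7.53 and 7.58 in control. The controls fell within the range of the first arrays, and every second array was above them. The difference was 1.92 ± 0.14 (log2, adjusted p = 2.73e-06), between values that were near background in all 12 arrays, and no fold is given for it. The cartilage partners Col2a1 and Col11a2 did not pass the test, with differences of 0.40 and -0.18. Of 6 chondrocyte markers, the transcription factor Sox9 was higher (1.28), Comp was lower (-0.70) and 4 did not pass, and 4 of the 6 lay under the negative control median in all arrays. Most of their summed signal was Sox9, at 10.63 to 11.53 in the second compound arrays, 9.6 to 10.33 in the first, and 10.08 and 10.01 in control. The log2 of the sum was 10.76 to 11.61 in the second compound arrays, 9.872 to 10.5 in the first and 10.26 to 10.32 in control, and its part in the Col11a1 result was not tested. Col27a1, a further fibrillar chain, differed by 0.57 (adjusted p = 0.0096, and 0.0804 with the replicate block), with all its values under the negative control median.

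Of the basement membrane chains Col18a1, Col15a1, Col4a5 and Col4a2 were higher. Col18a1, whose cleaved end is endostatin, had 14.77, 14.61, 14.74, 14.42 and 14.53 in the second arrays of SQ, mono-, di-, tri- and tetra-SQ, against 14, 13.67, 13.82, 12.92 and 13.51 in the first, and 14.06 and 14.1 in control. The 2 sets of compound arrays did not overlap, and the difference was 1.03 ± 0.14 (2.04-fold, adjusted p = 0.000191). Col15a1, a relative of Col18a1 in the zone beneath basement membranes, ranged from 9.43 to 9.92 in the second arrays and 8.65 to 9.1 in the first, with 8.91 and 9.02 in control, and differed by 0.80 (adjusted p = 0.00126).

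Col4a5, a minor type IV chain, had 8.03, 7.96, 8.04, 7.88 and 7.7 in the second arrays, against 6.81, 6.72, 6.78, 6.86 and 6.91 in the first, and 6.47 and 6.72 in control. Its second arrays were all above its first by at least 0.79, the difference was 1.11 ± 0.13 (log2, adjusted p = 8.18e-05), and it counts as near background. Col4a2, a chain of the common type IV network, ranged from 14.06 to 14.58 in the second arrays and 13.67 to 14.12 in the first, which overlap, and differed by 0.38 (adjusted p = 0.0363; 0.126 with the replicate block). Col4a1, its partner, ranged from 10.92 to 11.37 and 10.74 to 11.51, and its difference of 0.16 did not pass (95% interval -0.127 to 0.451, adjusted p = 0.439). Col4a3, Col4a4 and Col4a6 differed by -0.10 to 0.00, near background.

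None of the type VI chains Col6a1, Col6a2 and Col6a3 passed the test. Col6a1 had 15.57, 15.78, 15.65, 15.54 and 15.54 in the second arrays, against 15.44, 15.58, 15.63, 15.56 and 15.61 in the first, and 15.56 and 15.63 in control. All 12 values lay within 15.44 to 15.78, the groups overlapped, and the difference was 0.05 with a 95% interval of -0.203 to 0.307. Col6a2 differed by 0.02 (interval -0.232 to 0.28). Col6a3, the long chain of type VI, ranged from 16.42 to 16.57 in the second arrays and 15.97 to 16.41 in the first, and its difference of 0.31 (interval 0.0254 to 0.587) had an adjusted p of 0.113. All its second arrays lay above all its first, the closest pair by 0.01. The type VI chains were not tested against the fibrillar ones.

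**Figure D2:**
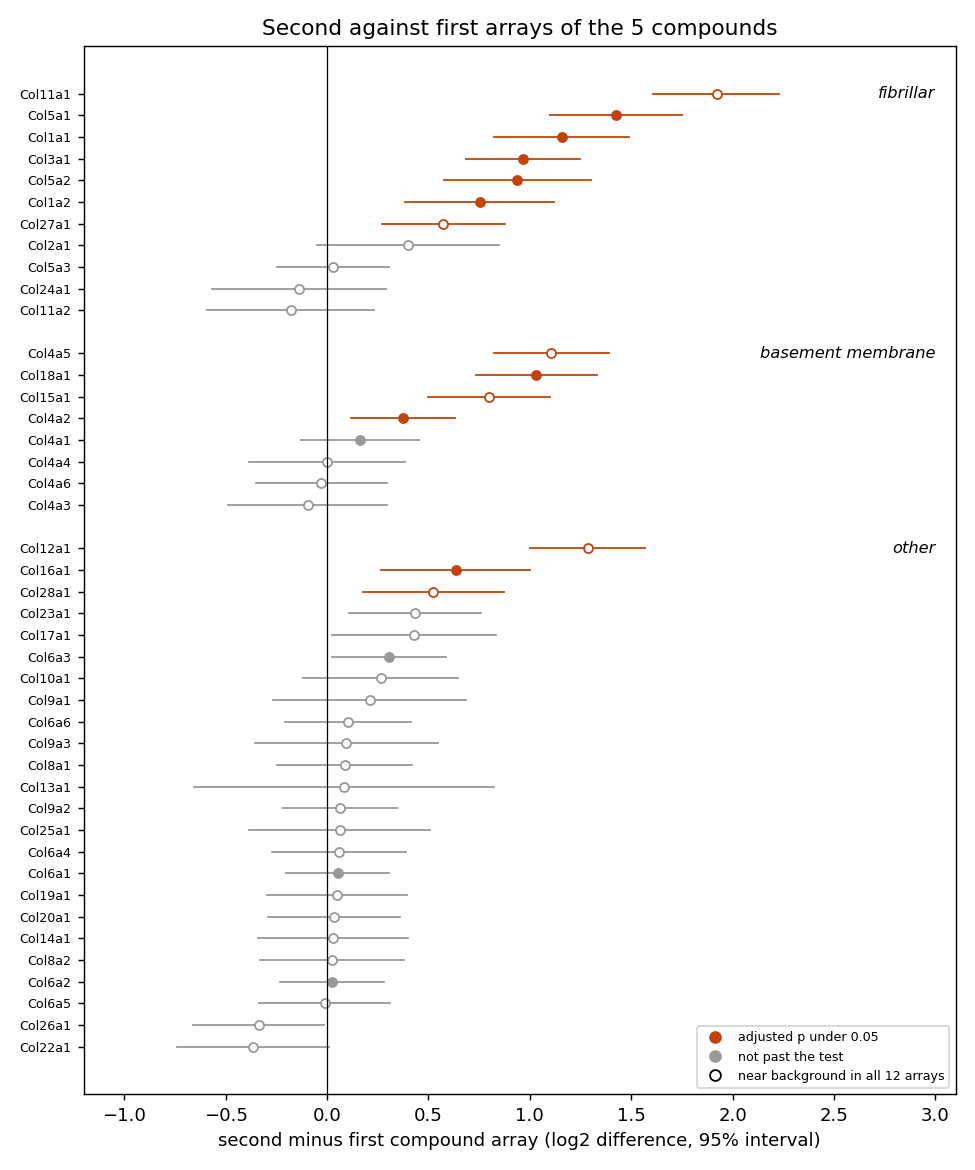
Difference between second and first compound arrays (log2, x axis) with 95% intervals from limma for all 43 chains, grouped as fibrillar, basement membrane and other. Red marks adjusted p under 0.05 and open circles mark chains near background in all 12 arrays. The 14 red chains all lie right of 0, from Col11a1 at 1.92 to Col4a2 at 0.38.

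Of the 24 other chains 3 were called (12.5%), a share close to the 13% of all probe sets called higher, and with the replicate block Col12a1 alone kept the call. Col12a1, a fibril-associated chain, had 7.59, 6.97, 7.05, 7.03 and 7.51 in the second arrays, against 6.18, 6.02, 5.84, 5.44 and 6.23 in the first, and 5.8 and 5.69 in control. These values straddle the negative control median, the 2 sets did not overlap, and the difference was 1.29 ± 0.13 (log2, adjusted p = 2.93e-05). Col16a1 ranged from 10.59 to 11.01 in the second arrays and 9.76 to 10.65 in the first, with 10.68 and 10.39 in control, and differed by 0.63 (adjusted p = 0.0162; 0.12 with the replicate block). Col28a1 differed by 0.52 (adjusted p = 0.032; 0.0943 with the replicate block) near background.

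Counted without a model, all 5 second compound arrays lay above all 5 first ones in 11 of 43 chains, 6 of them fibrillar and Col6a3 among the others. The same held for 9.89% of all probe sets. In 0 chains did all second arrays lie below all first ones, a direction for which no share of all probe sets is given here. Some of the 14 calls were marginal: Col4a2 and Col28a1 lost the call whenever an array of control, SQ, di-, tri- or tetra-SQ was left out, and Col16a1 whenever a mono-SQ or di-SQ array was. Leaving out an array also lowers the residual degrees of freedom, so a lost call does not point to that array.

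The control arrays also carry numbers 1 and 2. Between them Col1a1 differed by 0.01 (control 2 minus control 1), Col11a1 by 0.05 and Col3a1 by -0.07. Other chains differed more, such as Col5a1 by 0.22 and Col16a1 by -0.29. The chains ranged from -0.68 in Col24a1 to 0.65 in Col17a1, both under the negative control median in all arrays. The test of whether the second-minus-first difference was larger in the compounds than in control called 484 probe sets (2.18%) and 1 of the 43 chains (2.33%), Col11a1, at 1.87 ± 0.38 (adjusted p = 0.0358). Col12a1 at 1.40 (adjusted p = 0.0901) and Col5a1 at 1.20 (0.202) did not pass. An unadjusted p under 0.05 was found for 8 of the 43 chains and for 2512 of all probe sets. The control side of this test is a single pair of arrays. Without either array of mono-SQ, di-SQ or tetra-SQ the Col11a1 call was lost, with 255, 259 and 275 probe sets called.

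The 5 compounds, pooled by array number, were also set against the 2 control arrays, which these comparisons share. The fibrillar median was 0.47 in the second compound arrays, with 3 of 11 chains called, and -0.11 in the first, with 0 of 11 called. In the second compound arrays, 4211 probe sets (19%) differed from control, 9.69% of all being higher, and 7 chains were called, 7 higher and 0 lower. They were Col11a1 (1.82 ± 0.23), Col12a1 (1.48 ± 0.23), Col4a5 (1.33 ± 0.16), Col5a1 (1.24 ± 0.19), Col23a1 (0.82 ± 0.20), Col1a1 (0.72 ± 0.20) and Col15a1 (0.65 ± 0.19), with adjusted p from 1.94e-05 to 0.0224 in limma. Of these, Col1a1 was above background in all 12 arrays. Col5a1 was so only in the 5 second compound arrays, and both its control values were near background. Col3a1 at 0.49 (adjusted p = 0.0506), Col5a2 at 0.62 (0.0603) and Col18a1 at 0.53 (0.129) did not pass. Col6a1 differed by 0.02.

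Col23a1, a transmembrane collagen, ranged from 5.81 to 6.21 in the second compound arrays, with 5.43 and 5.05 in control, all under the negative control median. With control array 1 left out 5 chains were called and with control array 2 left out 4, and in both cases Col1a1 and Col15a1 lost the call. Without both tri-SQ arrays 13 chains were called. For none of these fits is a share of all probe sets given, so the counts do not show a change particular to the chains.

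In the first compound arrays, 1 probe set of 22206 (0.0045%) and 0 chains differed from control in limma, with 2717 probe sets and 8 chains at an unadjusted p under 0.05. Of the 43 chains 14 had higher and 29 lower means than control, and none passed. Of the chains above background, those with the smallest p were Col3a1 at -0.47 ± 0.17 (adjusted p = 0.279), Col6a3 at -0.40 ± 0.17 (0.351) and Col1a1 at -0.44 ± 0.20 (0.405). The median of all probe sets was -0.01. Among the first arrays, the tri-SQ array was the lowest in 8 of the 12 chains above background, SQ in 3 and di-SQ in 1. Over the 4845 probe sets above background, tri-SQ was the lowest in 24.5% and SQ in 41.1%.

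**Figure D3:**
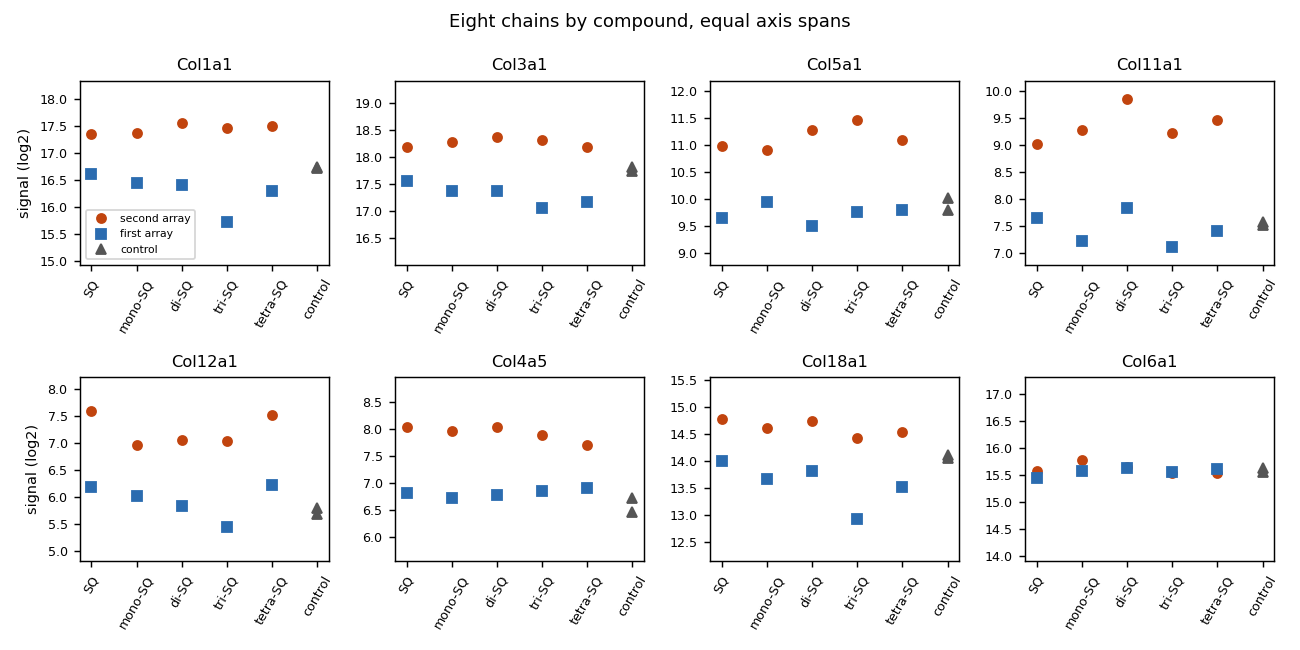
Signal (log2, y axis, equal spans) of 8 chains in each array by compound, from SQ to tetra-SQ, with control at the right. Circles are second arrays, squares first arrays and triangles the 2 control arrays. In Col1a1, Col5a1 and Col11a1 the circles lie above the squares for all 5 compounds, and in Col6a1 all values fall between 15.44 and 15.78.

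Taken by compound, as the study's labels group the arrays, no chain was called. In SQ and in mono-, di-, tri- and tetra-SQ against control, 0 of 22206 probe sets passed in limma (0% each), with 1117, 1310, 1237, 1483 and 1886 at an unadjusted p under 0.05. Of the 43 chains, 2, 1, 0, 2 and 3 had an unadjusted p under 0.05, all near background. The median difference of the fibrillar chains was 0.25 in SQ, 0.21 in mono-SQ, 0.20 in di-SQ, -0.09 in tri-SQ and 0.15 in tetra-SQ. These signs rest on single arrays. The tri-SQ median was 0.56 without its first array, -0.435 without its second and 0.01 without control array 1. Without its own second array the median was -0.095 in SQ, -0.195 in mono-SQ, -0.01 in di-SQ and -0.145 in tetra-SQ. With 1 array left in a group, its spread is assumed to be that of the other groups.

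Each compound joins a high and a low array, and the intervals for single chains were wide. For Col1a1 the differences from control were 0.26 in SQ (95% interval -1.22 to 1.73), 0.17 in mono-SQ (-1.3 to 1.65), 0.24 in di-SQ (-1.23 to 1.71), -0.14 in tri-SQ (-1.61 to 1.33) and 0.17 in tetra-SQ (-1.3 to 1.64). The authors' deposited table gives Col1a1 signed folds of 1.19, 1.13, 1.18, -1.1 and 1.12 for SQ, mono-, di-, tri- and tetra-SQ against control, where a minus sign marks a lower level in the compound, with p-values from 0.7092 to 0.8345. For Col11a1 the authors' deposited table gives 1.73, 1.63, 2.46, 1.54 and 1.85, with p-values from 0.2372 to 0.5611.

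Among the chains above background, those with the smallest p differed by compound and none passed. Col6a2 was among them in all 5 comparisons with control, at -0.33 in SQ (adjusted p = 0.920), -0.10 in mono-SQ (0.927), -0.16 in di-SQ (0.926), -0.23 in tri-SQ (0.873) and -0.27 in tetra-SQ (0.716). Col6a3 was also among them, from -0.37 in tetra-SQ to -0.16 in di-SQ. The others were Col4a1 in SQ (-0.15), tri-SQ (-0.32) and tetra-SQ (0.28), Col5a1 in mono-SQ (0.52) and Col4a2 in di-SQ (0.21). The means of Col6a2 and Col6a3 in all 5 compounds were lower than in control.

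The derivatives were set against their parent SQ at the same dose and time, the glycol part being the change in structure. In each of the 4 comparisons 0% of probe sets passed in limma, with 520, 520, 1106 and 819 at an unadjusted p under 0.05 for mono-, di-, tri- and tetra-SQ, and the F test over the 5 compounds also called 0%. Of the chains, 1, 1, 2 and 3 had an unadjusted p under 0.05. The chains above background with the smallest p were Col6a2, Col6a1 and Col4a1 in mono-SQ (0.23, 0.18 and 0.16), Col4a2, Col6a2 and Col6a1 in di-SQ (0.25, 0.17 and 0.14), Col18a1, Col16a1 and Col4a2 in tri-SQ (-0.71, -0.44 and -0.23) and Col4a1, Col16a1 and Col18a1 in tetra-SQ (0.42, -0.28 and -0.36).

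With a term for the second compound arrays the intervals narrowed and again 0 probe sets passed. In that fit Col1a1 differed from SQ by -0.08 in mono-SQ (95% interval -0.611 to 0.451), -0.01 in di-SQ (-0.546 to 0.516), -0.40 in tri-SQ (-0.926 to 0.136) and -0.09 in tetra-SQ (-0.616 to 0.446). Col3a1 differed by -0.05 (-0.497 to 0.397), -0.01 (-0.452 to 0.442), -0.19 (-0.637 to 0.257) and -0.20 (-0.642 to 0.252) in the same order of derivatives. Col18a1 in tri-SQ had the interval farthest from 0 among chains above background, at -0.71 (-1.19 to -0.245), with an adjusted p of 0.307. These intervals leave room for differences of the sizes given, and do not show that the compounds act alike on the chains.

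Genes that modify, fold, cut, crosslink and take up collagen were examined between second and first compound arrays, where 13% of all probe sets were called higher and 24.7% in either direction. Of 14 hydroxylation genes 5 were higher and 1 lower, of 12 folding and export genes 6 were higher and 0 lower, of 13 processing and crosslinking genes 9 were higher and 0 lower, and of 10 receptor and uptake genes 5 were higher and 0 lower. The list medians were 0.42, 0.47, 1.14 and 0.28, against -0.02 for all probe sets. Plod3, Loxl2 and Itga1 were on these lists and have no probe set with a single symbol that could be used here.

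Of the processing and crosslinking genes, Adamts2, the proteinase that removes the amino-terminal propeptide, ranged from 13.1 to 13.54 (median 13.13) in the second compound arrays and 9.89 to 11.26 (median 10.89) in the first, with 11.24 and 11.07 in control, and differed by 2.52 ± 0.17 (5.74-fold, adjusted p = 1.54e-06). The crosslinking enzyme Lox ranged from 18.12 to 18.57 in the second arrays and 16.27 to 16.9 in the first, with 16.8 and 16.87 in control, and differed by 1.67. Neither gene's second arrays overlapped its first. Loxl3, a relative of Lox, differed by 1.77, and Bmp1, which removes the carboxy-terminal propeptide, by 1.48.

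Inside the cell, the hydroxylysine galactosyltransferase Colgalt1 differed by 1.00, the prolyl hydroxylase subunits P4ha3 by 0.93 and P4ha1 by 0.74, and P3h2 by -0.74 with all its values under the negative control median. P4ha3 was near background in all 12 arrays. Among folding and export genes, the coat protein Sec24d differed by 1.33, the chaperone Fkbp10 by 1.16, the transcription factor Creb3l1 by 1.09 and Kdelr3 by 0.60. Sec24d was near background in all 12 arrays, and Kdelr3 was above it in 2. Serpinh1, the collagen-specific chaperone, ranged from 12.46 to 13.34 in the second arrays and 12.8 to 13.15 in the first, with 13.01 and 13.04 in control, and its difference of -0.03 did not pass (adjusted p = 0.915). Among receptors and uptake genes, the proteinase Ctsk differed by 1.79, the endocytic receptor Mrc2 by 1.29, the integrin Itga11 by 1.23 and the kinase receptor Ddr2 by 1.06. Ctsk and Itga11 were near background in all 12 arrays. Ddr1 at -0.33 and Itga2 at -0.12 did not pass.

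**Figure D4:**
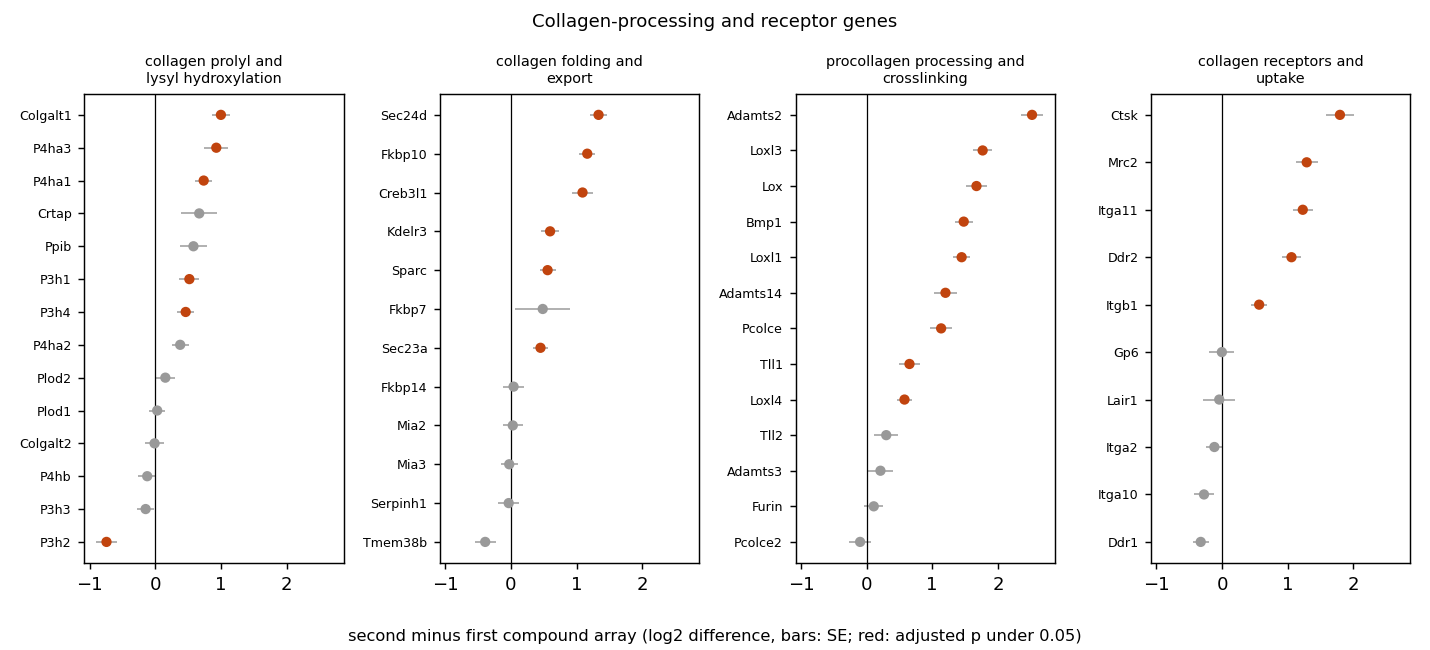
Difference between second and first compound arrays (log2, x axis, bars SE) for genes of 4 steps in collagen handling, with adjusted p under 0.05 in red. Adamts2 lies at 2.52 and Ctsk, near background in all 12 arrays, at 1.79, while Serpinh1 lies at -0.03.

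Markers of other matrix-producing cells were examined beside the chains, with the same 13% of all probe sets called higher and 24.7% in either direction. Of 6 preadipocyte and fibroblast markers 3 were higher and 0 lower in the second compound arrays: Dlk1, a preadipocyte surface protein (1.82), S100a4 (1.26) and Pdgfrb (1.24). Thy1 (0.63), Ly6a (-0.21) and Cd34 (-0.31) did not pass, and Cd34 lay under the negative control median in all arrays. The log2 of the summed signal of all 6 was 18.11 to 18.41 in the second compound arrays, 16.04 to 16.9 in the first and 16.88 to 16.9 in control. Most of it was Dlk1, at 17.82 to 18.18 in the second compound arrays, 15.57 to 16.56 in the first, and 16.61 and 16.57 in control. Of 4 myofibroblast markers 2 were higher, Acta2 (1.22) and Myl9 (0.81), and Tagln was lower (-1.02), with sums of 15.46 to 15.86, 14.23 to 14.85 and 14.43 to 14.51 in the same order. Nearly all of that sum was Acta2, at 15.45 to 15.85 in the second compound arrays, 14.22 to 14.84 in the first, and 14.5 and 14.42 in control. Myl9 and Tagln were near background in all 12 arrays. Of 6 osteoblast markers Runx2 was higher (1.22) and Alpl lower (-5.05), with sums of 9.309 to 10.25, 9.807 to 11.02 and 10.28 to 10.3, and 4 of the 6 under the negative control median. Runx2 was near background in all 12 arrays, and Alpl was above it in 1. The endothelial, macrophage, keratinocyte and skeletal muscle lists had 0 members past the test in either direction, and 5 of 5, 4 of 5, 3 of 3 and 4 of 4 of their members lay under the negative control median in all arrays. The part of these cell types, and of the lower adipocyte markers, in the collagen differences was not tested.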

How the data were processed

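Total RNA of 12 samples was hybridised to Clariom S mouse arrays. Scans were normalised by SST-RMA (Transcriptome Analysis Console software, per the submitters' design text). The main deposited table gives the authors' log2 signal of each probe set in each array, rounded to 2 decimals. The deposited comparison tables hold, per the file headers, a signed fold change, which is read here as a score, and a p-value with its false discovery rate for each compound against control. The test behind them is not given in the sources used here. The deposited series matrix also lists the negative control probe sets on a log2 scale, and these set the background. Arrays give no counts, so the number of arrays limits the precision.

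From the log2 signals of all 22206 probe sets, limma 3.58.1 in R 4.3.3 (lmFit, eBayes, two-sided moderated tests, Benjamini-Hochberg over all probe sets, threshold 0.05) fitted 6 groups (6 residual degrees of freedom), the groups plus a term for compound arrays numbered 2 (5), the same with number 2 also in control (4), and 3 classes of arrays (9). The fits were tested on simulated data. The labels' numbers pair the compounds with each other (correlations of 0.48 to 0.719) and not with control. All 43 chains were found in RefSeq, which gave coordinates and promoter windows. The chains and lists, the rule for naming them (12 abundant chains, those past the test, and otherwise the 3 smallest p above background) and the split by array number were chosen with earlier results of these data known. Alternatives were the intensity trend, the series matrix values, quantile normalisation, a filter under the 25th percentile, leaving out each array, the replicate block, the authors' tables and other background limits.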

Additional observations from a re-analysis of the deposited data

Results flagged for a closer look

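Among the first compound arrays, Col5a2 had an array far from the others: the first tri-SQ array stood at 10.05 and the nearest at 10.77 (log2), a gap of 0.742 of the whole range. Of 38 sets of 5 arrays examined for such a gap this was the only 1. Chance gives such a gap in about 1 in 20 sets, so 1 among 38 is no more than chance gives. For Col11a1 the second-minus-first difference was larger in the compounds than in control by 1.87 (log2, limma interaction, adjusted p = 0.0358), with the second array above the first in 5 of 5 compounds. It was 1 of 43 chains called (2.33%), against 2.18% of all probe sets. The control side is a single pair of arrays, and the call was lost without either array of mono-SQ, di-SQ or tetra-SQ.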

How the results depend on the processing

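No difference that passed the test changed sign under the alternatives run, but fibrillar medians of single compounds against control did. The comparisons of single compounds with control or SQ, and the F test, called 0 probe sets under every alternative run, the replicate block included. With the replicate block, whose own term is then the second-minus-first difference over all 12 arrays, second against first compound arrays called 3543 probe sets in place of 5492, and 10 chains in place of 14; Col4a2, Col16a1, Col27a1 and Col28a1 were lost and no other named chain lost its call. With single arrays left out this comparison called 4542 to 5465 probe sets and 11 to 13 chains, with a fibrillar median of 0.562 to 0.85. With single arrays left out, the fibrillar median against control ranged from -0.095 to 0.415 in SQ, -0.195 to 0.52 in mono-SQ, -0.01 to 0.505 in di-SQ, -0.435 to 0.56 in tri-SQ and -0.145 to 0.425 in tetra-SQ. With the term for second arrays it was -0.219, -0.235, -0.117, -0.312 and -0.177 in the same order, which takes the second-array difference out of each compound. The interaction called 755 probe sets with the intensity trend, and 255 to 584 probe sets and 0 to 1 chains with single compound arrays left out; without a control array it could not be fitted. The first compound arrays against control called 0 probe sets with the intensity trend, the series matrix values or quantile normalisation, and 0 to 5 with single arrays left out. The second compound arrays against control called 1880 to 4704 probe sets and 4 to 10 chains with single arrays left out. Leaving out both tri-SQ arrays, chosen after seeing the data, gave 2 probe sets for the first arrays and 13 chains for the second. The share of all probe sets called beside those 13 chains is not given. Against the negative control median 17 chains, and against the 25th percentile of all probe sets 2 chains, lay near background in all arrays. With 2 arrays a group and chains near background, small differences are not resolved.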
